A study of Mus musculus with 6 samples.

Results

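The redox genes Prdx2, Gsta4 and Duox1 were followed in mouse sperm RNA on 6 two-colour arrays. They are 3 of the 45 genes that could be named on the array, and each is read by 1 catalogue probe printed 10 times per array: A_51_P147207 for Prdx2 (NM_011563), A_51_P112223 for Gsta4 (NM_010357) and A_51_P475138 for Duox1 (NM_001099297). All 3 entered every main test described here, and Duox1 dropped out under 1 stricter filter given below. The control group was male C57BL/6 mice on control drinking water (3 arrays). The Cd group was males of the same strain that drank water with 100 mg/L CdCl2 (3 arrays), from 5 weeks of age and for 10 weeks. Sperm was taken from both groups at 15 weeks. Each array compared 2 fractions of 1 sperm RNA sample, the immunoprecipitated RNA (IP, red dye Cy5) and the RNA left in the supernatant (green dye Cy3). What was immunoprecipitated and how many animals stand behind each array are not given in the sources used here. If arrays were not separate animals, the p-values measure only the spread between these samples.

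Cadmium does not cycle between oxidation states itself. It binds thiols, draws on glutathione and disturbs mitochondria, and is known to raise reactive oxygen species in this way. Peroxiredoxins reduce hydrogen peroxide through a reactive cysteine that thioredoxin then restores. Glutathione transferases of the alpha class join glutathione to toxic products of lipid peroxidation, and dual oxidases produce hydrogen peroxide at membranes. Sperm membranes are rich in polyunsaturated lipids and mature sperm transcribe little, so their RNA is largely a remnant of spermatogenesis.

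Of 90 further genes of the redox network (peroxiredoxins, the thioredoxin system, glutathione peroxidases, glutathione synthesis, glutathione transferases, superoxide dismutases and catalase, NADPH oxidases and their partners, and oxidative and metal stress genes), 0 have a named probe. The pathway around the 3 genes was therefore not analysed here. Of 13 sperm and spermatid markers 1 has a named probe, Hyal3, a hyaluronidase of sperm. Its IP signal was well above background on all 6 arrays, and its supernatant signal on Cd replicates 1 and 2. The lists of epididymal epithelium, leukocytes, Sertoli and Leydig cells and red blood cells have 0 named probes, so RNA of those cells was not analysed here.

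The arrays differed in brightness and were scanned by group. The share of probes with an IP signal well above background was 28.2% to 44.8% on the control arrays, against 43.7% to 49.3% on the Cd arrays. In the supernatant the ranges were 35.1% to 44.0% and 45.6% to 49.8%. A possible sign of RNA integrity, the log2 signal of the 5′ control probe of mouse Gapdh minus that of its 3′ probe, was lower on the Cd arrays in the IP channel (-1.86 ± 0.04 against -1.43 ± 0.05, SD, n = 3 each, exact 2-sided permutation p = 0.1) and in the supernatant (-0.66 ± 0.12 against -0.37 ± 0.21, exact permutation p = 0.1). With 3 arrays against 3, 0.1 is the smallest p that this test allows. The part of brightness and of this difference in the results for the 3 genes was not tested. Scan and treatment therefore cannot be told apart wherever the groups are compared.

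The 3 genes lay at different places between the fractions. The IP over supernatant ratio is log2 of the red over the green processed signal, centred on the median of each array, so that a positive value means a higher IP share than the middle probe of that array. Prdx2, the cytosolic typical 2-Cys peroxiredoxin that is abundant in red cells, was on the supernatant side on every array. Its processed intensity in the IP channel was 12730, 15240 and 17550 on control replicates 1, 2 and 3, and 22300, 16600 and 14070 on Cd replicates 1, 2 and 3. In the supernatant channel the intensities were 29840, 40780 and 45820 in control and 36230, 45090 and 22770 in Cd. The supernatant signal was the higher one on all 6 arrays, and the IP channel held 26.9% to 38.2% of the summed signal.

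The centred log2 ratio of Prdx2 was -1.26, -1.40 and -1.40 in control and -0.70, -1.40 and -0.77 in Cd. The control arrays stood close together, while the Cd arrays split, with Cd replicate 2 at the control values and Cd replicates 1 and 3 above all controls. Prdx2 had the lowest mean ratio among the 27 named genes of the ratio test in both groups (rank 27 of 27). On single arrays it lay between the 13.6th and the 27.5th percentile of all 23788 probes tested. In control sperm the mean was -1.35 ± 0.08 (SD, n = 3). It stayed negative under every setting that could change it, from -2.20 with scaling to the spike-in probes to -1.01 with normexp background correction. Dye and fraction are confounded on these arrays because IP RNA always carried Cy5, so the sign was not tested against 0.

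Gsta4, an alpha-class glutathione transferase with high activity toward 4-hydroxynonenal, a product of lipid peroxidation, lay near the middle of the arrays. Its IP intensity was 322 on control replicate 1, 1011 on replicate 2 and 796 on replicate 3, and 847, 940 and 462 on Cd replicates 1, 2 and 3. The supernatant intensities were 542, 906 and 818 in control and 828, 846 and 499 in Cd. Control replicate 1 was the dimmest array for the IP signal, and Cd replicate 3 was the dimmest in the supernatant.

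The log2 ratio of Gsta4 was -0.88, 0.18 and -0.05 in control and 0.04, 0.18 and -0.20 in Cd. 5 of the 6 arrays lay within 0.20 of the array median, and control replicate 1 lay far below them. On that array the IP signal of 8 of 10 spots was well above background, and that of 10 of 10 on every other array. The control mean was -0.25 ± 0.56 and the Cd mean 0.0074 ± 0.19 (SD, n = 3 each). Without control replicate 1 the control mean was 0.06, so the position of Gsta4 below the array median in control sperm rested on that array. With spike-in scaling the means were -1.10 in control and -0.65 in Cd. That scaling moves the zero of an array for all probes alike, so the place of Gsta4 against the middle probe is unchanged.

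Duox1, a dual oxidase best known from thyroid and airway epithelium, was the dimmest of the members against its own background. The raw IP signal of its spots had a median of 27.0 to 39.5 per array over a local background of 15 to 17, and the raw supernatant signal 26.5 to 39.0 over 12 to 14. On control replicate 1, 0 of 10 spots were well above background in either channel. On the other 5 arrays all 10 spots had an IP signal well above background, whereas in the supernatant the number was 10 and 9 on control replicates 2 and 3 and 10, 6 and 5 on Cd replicates 1, 2 and 3. On control replicate 1 the scaled log2 signals of Duox1 were -1.44 (IP) and -2.18 (supernatant), below the lowest values counted as well above background there (-0.60 and -1.21).

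The processed intensity of Duox1 in the IP channel was 112, 261 and 279 in control and 202, 261 and 275 in Cd. In the supernatant it was 72.5, 228 and 158 in control and 142, 135 and 103 in Cd. The IP signal was the higher one on every array, by a margin that differed widely between arrays. This includes control replicate 1, where no spot was well above background in either channel. The log2 ratio was 0.62, 0.20 and 0.80 in control and 0.51, 1.05 and 1.38 in Cd. The groups overlapped, and Cd replicate 3 held the highest value. The control mean of Duox1 was 0.54 ± 0.31 and its Cd mean 0.98 ± 0.44 (SD, n = 3 each). Normexp background correction was run with an offset of 50 added to each channel, which draws the ratio of a dim probe toward 0. With it the Duox1 means were 0.09 in control and 0.17 in Cd. With spike-in scaling, which moves the zero for all probes alike, the control mean was -0.30 and the Cd mean 0.31. The sign of Duox1 in control sperm therefore depended on where the zero was set.

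**Figure D1:**
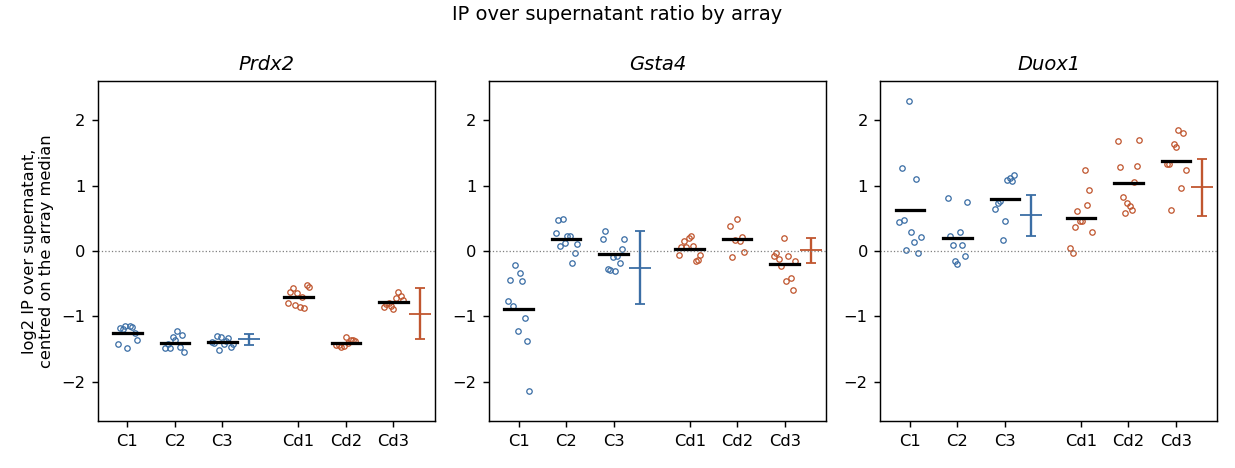
The log2 IP over supernatant ratio of Prdx2, Gsta4 and Duox1 (vertical axis, centred on each array's median) is plotted for the 3 control arrays (C1 to C3, blue) and the 3 Cd arrays (Cd1 to Cd3, orange), with 1 open circle per printed spot, a black bar for the array mean and, beside each group, the mean ± SD of its 3 arrays. The circles of Prdx2 sit tightly around each array mean with Cd1 and Cd3 above the other arrays, while those of Duox1 and of Gsta4 on C1 scatter widely.

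The 10 spots of a probe give the printing and reading error within an array. For Prdx2 the SD of the log2 ratio over the spots of an array was 0.05 to 0.13, and the standard error of the array mean 0.02 to 0.04. For Gsta4 the spot SD ran from 0.14 to 0.59, with the highest value on control replicate 1. For Duox1 it ran from 0.34 to 0.73, again highest on control replicate 1, and the standard error of an array mean was 0.11 to 0.23. Spots carrying an outlier flag were removed, 4 of 60 for Prdx2, 3 of 60 for Gsta4 and 3 of 60 for Duox1. The 3 of Gsta4 were all on Cd replicate 2. Spots of one array share a sample and were not counted as replicates.

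The first comparison asked whether the ratio differed with Cd. The mean ratio was higher in Cd for 3 of 3 genes, and 0 of 3 passed the test. For Prdx2 the difference between the groups was 0.40 on the log2 scale (SE 0.27, 95% interval -0.23 to 1.02, limma unadjusted p = 0.183, adjusted p = 0.961). For Duox1 it was 0.43 (SE 0.31, 95% interval -0.26 to 1.13, limma unadjusted p = 0.193, adjusted p = 0.961). For Gsta4 it was 0.26 (SE 0.32, 95% interval -0.47 to 0.99, limma unadjusted p = 0.441, adjusted p = 0.966), and it turned to -0.05 without control replicate 1.

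Over all 23788 probes of the ratio test, 0.00420% passed an adjusted p of 0.05 and 5.02% an unadjusted p of 0.05, and 0 of the 3 genes did either. Control and Cd values overlapped for all 3 genes, and 10.0% of all probes had groups that did not overlap. The mean ratio was higher in Cd for 54.6% of all probes, with a median difference of 0.04, against a median of 0.40 over the 3 genes. Among the 27 named genes of the ratio test, 19 had a mean ratio above the array median in control and 23 in Cd. How many of those named genes were higher in Cd was not counted, so a higher ratio is not shown to be particular to the 3 genes. Each 95% interval includes 0, and its upper end lay at a ratio 2.02-fold higher in Cd for Prdx2, 1.99-fold for Gsta4 and 2.19-fold for Duox1. The Prdx2 difference was 0.27 without Cd replicate 1 and 0.62 without Cd replicate 2. It was lowest, at 0.18, on background-subtracted signals without dye normalization, where that of Gsta4 was 0.30 and that of Duox1 0.37. The Duox1 difference was 0.23 without Cd replicate 3, 0.26 without control replicate 2 and 0.67 without Cd replicate 1. With normexp and its offset of 50 the difference was 0.21 for Prdx2, 0.07 for Gsta4 and 0.09 for Duox1. The offset draws the ratios of dim probes toward 0 in both groups, and how much of the change it made was not tested.

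The second comparison separated the fractions. Each channel was scaled by subtracting the 75th percentile of the array from log2 of the processed signal. In the supernatant the mean was lower in Cd for 3 of 3 genes, also with each scaling tried, against 51.5% of all probes with a higher mean in Cd, and 0 of 3 passed the test. The groups overlapped for all 3 genes, and 18.2% of all probes had groups apart. For Prdx2 the scaled supernatant signal was 6.56, 6.49 and 6.59 in control and 6.18, 6.52 and 5.67 in Cd. The control arrays lay within 0.09 of each other, Cd replicate 2 lay among them, and Cd replicates 1 and 3 lay below. The difference was -0.43 (SE 0.25, 95% interval -1.0 to 0.15, limma unadjusted p = 0.130, adjusted p = 0.589). It was -0.20 without Cd replicate 3, -0.02 with normexp and -0.63 without Cd replicate 2 (limma unadjusted p = 0.0402, adjusted p = 0.443, where its adjusted p over all alternatives ran from 0.443 to 0.9999).

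For Gsta4 the scaled supernatant signal was 0.77, 0.97 and 0.77 in control and 0.72, 0.79 and 0.15 in Cd. Cd replicate 3 alone stood well below the rest. The difference was -0.28 (SE 0.24, limma adjusted p = 0.687), and -0.08 without Cd replicate 3. For Duox1 the values were -2.18, -1.01 and -1.61 in control and -1.84, -1.94 and -2.17 in Cd. The control arrays spanned more than the Cd arrays, from control replicate 1, not measured above background, to control replicate 2. The difference of Duox1 was -0.38 (SE 0.30, limma adjusted p = 0.673). It was -0.67 without control replicate 1 (limma unadjusted p = 0.0398, adjusted p = 0.630, where its adjusted p over all alternatives ran from 0.538 to 0.9999) and -0.09 without control replicate 2. Over all 26878 probes of this channel 0% passed an adjusted p of 0.05 in limma and 9.56% (2570) an unadjusted p of 0.05, and the median difference was 0.01.

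In the IP channel the scaled means of the groups lay close together, and 0 of 3 genes passed the test. The mean was higher in Cd for 1 of the 3 (Duox1) and for 52.5% of all probes, and the groups overlapped for all 3, against 16.3% of all probes with groups apart. For Prdx2 the scaled IP signal was 5.42, 5.08 and 5.20 in control and 5.48, 5.07 and 4.96 in Cd. The 2 sets interleave. The difference was -0.06 (SE 0.25, 95% interval -0.65 to 0.52, limma adjusted p = 0.960).

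For Gsta4 the IP values were 0.0032, 1.14 and 0.73 in control and 0.75, 0.92 and 0.03 in Cd, with 1 low array in each group. Its difference was -0.06 (SE 0.37, limma adjusted p = 0.978). For Duox1 they were -1.44, -0.81 and -0.79 in control and -1.33, -0.94 and -0.72 in Cd, a difference of 0.02 (SE 0.29, limma adjusted p = 0.992). The sign of each of these 3 differences turned under some settings. Over all 27413 probes of this channel 0% passed an adjusted p of 0.05 in limma and 8.00% (2194) an unadjusted p of 0.05. For Prdx2 the split of the ratio difference between the fractions differed between processing settings. The normexp setting differs from the main one in more than background correction, since it started from raw median signals and added an offset of 50. With normexp its IP difference was 0.20 and its supernatant difference -0.02. The same values were -0.25 and -0.52 with quantile normalization, -0.09 and -0.39 with median scaling, and -0.19 and -0.43 with spike-in scaling. Before scaling, the mean IP intensity was higher in Cd for 3 of 3 genes (17650 against 15170 for Prdx2, 749 against 710 for Gsta4 and 246 against 217 for Duox1), and the groups overlapped for each. The share of all probes higher in Cd before scaling was not counted, so this is no result about the 3 genes. In the deposited log2 values of the authors, which tracked the IP signal, the median difference over all probes tested was 0.28.

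**Figure D2:**
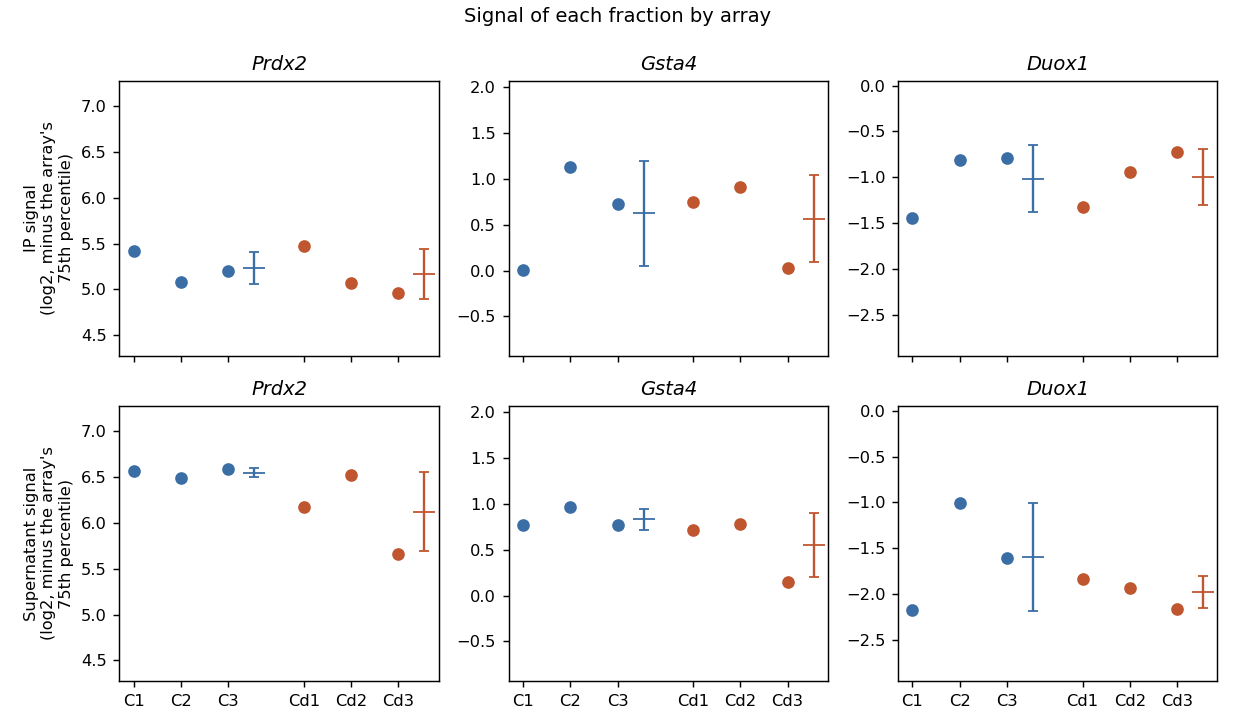
The scaled log2 signal of each gene (vertical axis, log2 processed signal minus the array's 75th percentile) is plotted for the IP fraction (upper row) and the supernatant fraction (lower row) on the 3 control arrays (blue) and the 3 Cd arrays (orange), with the mean ± SD of each group beside its points. All panels span the same number of log2 units. Cd3 is the lowest Cd array in all 3 supernatant panels, and C1 is the lowest control array for Duox1 in both fractions.

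The third comparison concerned the RNA level, taken as log2 of the summed red and green processed signals minus the 75th percentile of the array. The ratio, the fraction signals and the level are formed from the same 2 channels, so their directions are not independent results. Because the channels were dye-normalized before they were summed, this level is not a direct measure of the amount of RNA. In these bulk samples, fewer cells with a transcript and less RNA per cell cannot be told apart. The mean level was lower in Cd for 3 of 3 genes, and 0 of 3 passed the test. For Prdx2 the levels were 6.02, 5.83 and 5.94 in control and 5.77, 5.86 and 5.25 in Cd. Cd replicate 3 was the lowest array and Cd replicate 2 lay among the controls. The difference was -0.30 (SE 0.22, 95% interval -0.80 to 0.20, limma unadjusted p = 0.206, adjusted p = 0.646), and it was -0.11 without Cd replicate 3 and 0.03 with normexp.

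For Gsta4 the levels were 0.37, 0.93 and 0.64 in control and 0.63, 0.75 and -0.0090 in Cd. The difference was -0.19 (SE 0.26, limma adjusted p = 0.835) and became 0.05 without Cd replicate 3, the lowest array. For Duox1 the levels were -1.84, -1.03 and -1.25 in control and -1.65, -1.45 and -1.36 in Cd. The Cd arrays all lay inside the range of the control arrays. The difference was -0.12 (SE 0.25, limma adjusted p = 0.899) and ranged from -0.35 without control replicate 1 to 0.06 without control replicate 2. Over all 30518 probes 0% passed an adjusted p of 0.05 in limma and 10.3% (3129) an unadjusted p of 0.05. A higher mean in Cd was found for 49.9% of all probes, and 19.5% had groups that did not overlap, against 0 of the 3 genes.

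**Figure D3:**
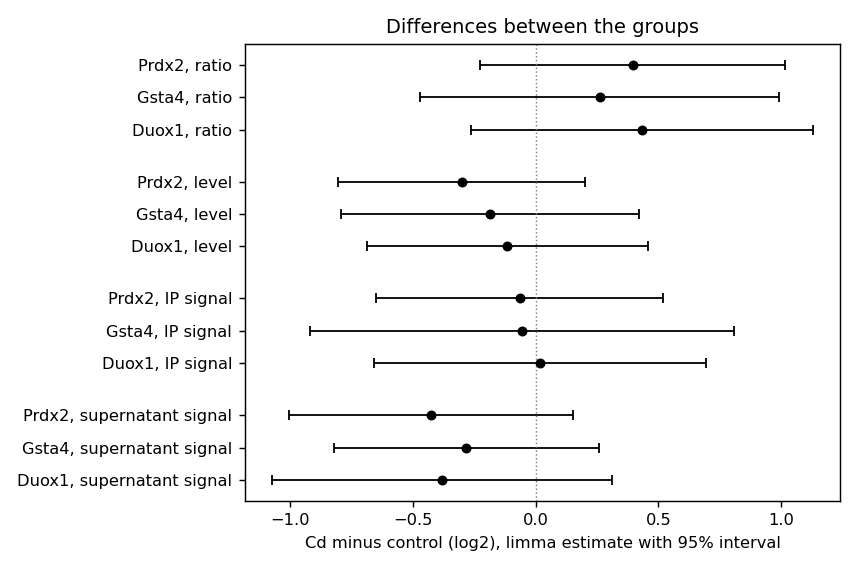
The limma difference Cd minus control (horizontal axis, log2) is drawn with its 95% interval for each gene in the ratio, the level, the IP signal and the supernatant signal. All 12 intervals cross 0. The points lie above 0 for the ratio, below 0 for the level and the supernatant signal, and close to 0 for the IP signal.

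The 3 genes did not follow each other across the arrays. Over the 6 arrays the log2 ratio of Prdx2 correlated with that of Gsta4 at Pearson r = -0.07 and with that of Duox1 at 0.28, and Gsta4 with Duox1 at -0.07. The values share arrays and centring, and 6 points from 2 scans describe these libraries only. Among the other 26 named genes of the ratio test, the ratio of Gamt, the methyltransferase of creatine synthesis, was most like that of Prdx2 (r = 0.96), followed by that of Gpi1, the glycolytic glucose-6-phosphate isomerase (r = 0.88). The ratio of Gamt was 0.43, 0.28 and 0.24 in control and 0.62, 0.28 and 0.72 in Cd, with Cd replicates 1 and 3 above Cd replicate 2. Genes named as alike were picked by r on these same 6 arrays, so a shared pattern follows from the choice. The rank correlations were lower, at 0.71 for Gamt and 0.60 for Gpi1.

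Gsta4 was most like Taf1a, a subunit of the RNA polymerase I initiation factor (r = 0.85), and Rab5a, a GTPase of early endosomes (r = 0.80). Both were low on control replicate 1, as Gsta4 was, at -0.32 and 0.21, a likeness for which they were picked. Duox1 was most like Tm9sf1, a membrane protein of the nonaspanin family (r = 0.95), and Lhx1, a LIM homeobox transcription factor (r = 0.90), which were highest on Cd replicate 3 at 0.46 and 0.55.

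**Figure D4:**
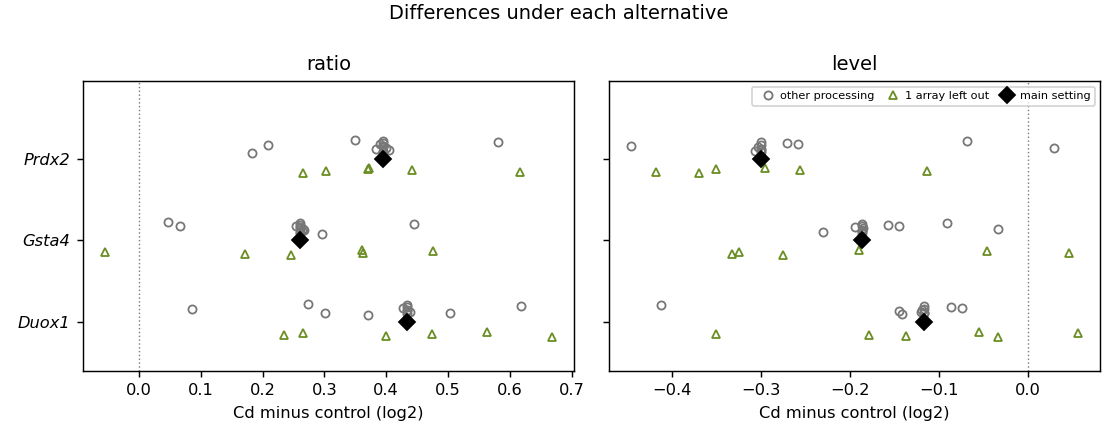
The difference Cd minus control (horizontal axis, log2) of each gene is shown for the ratio (left) and the RNA level (right) in the main setting (black diamond), when 1 array is left out (green triangles) and under the other processing settings, which include leaving out control replicate 1 and Cd replicate 3 together (grey circles). For the ratio all points of Prdx2 and Duox1 lie above 0 and 1 point of Gsta4 lies below it, and for the level 1 point of each gene lies above 0.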

How the data were processed

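RNA of 6 sperm samples was read on two-colour Agilent arrays, 1 per sample. Per the file headers, Agilent Feature Extraction 11.0.1.1 made the deposited intensity of each spot by subtracting background and normalizing dyes. The log10 ratio the authors deposited served only to check that the processed signals give it. The series table of the authors holds deposited log2 values with unstated scaling and centring (column medians -2.87, -2.00, -2.17, -2.11, -1.81 and -2.36). It tracked the IP signal with r = 1 per array, has 0 rows for the 3 genes and was used only for the array-wide count of calls.

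Spots with an outlier flag were removed and log2 values of a probe's spots averaged. A probe was well above background on an array when at least 50% of its spots were. Probes entered a test when well above background on at least 3 of 6 arrays, in both channels for the ratio, in either for the level and in its own channel for a fraction. Groups were compared with limma 3.58.1 (lmFit, eBayes) in R 4.3.3, 2-sided, with Benjamini-Hochberg adjustment over all probes at 0.05. The fit was also run on simulated independent values with changes larger than the differences of the 3 genes. That run does not cover differences of their size or differences between scans. Figures were drawn with matplotlib 3.10.9. The number of arrays limits the precision.

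Symbols came from RefSeq accessions (assembly GRCm38.p6, used for names only), which matched 45 of 50 catalogue probes. Probe sequences were not used here, so binding of pseudogene or paralogue RNA was not tested. The 3 genes, the gene lists and the tests were chosen with earlier results of these data known. Genes named as alike are the 2 with the highest Pearson r of the ratio for each member. Each scan holds 1 group, so no scan block was possible.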

Additional observations from a re-analysis of the deposited data

How the results depend on the processing

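The 3 genes passed the test under 0 of the alternatives that gave them a value, out of 23 tried (smallest limma adjusted p 0.725 for the ratio, 0.511 for the level, 0.635 for the IP signal and 0.443 for the supernatant). The ratio differences kept their sign for Prdx2 and Duox1, from 0.18 to 0.62 and from 0.09 to 0.67, and for Gsta4 in all but 1. The supernatant differences kept theirs for all 3. Settings that change only the filter, the variance model or the replicate block leave each difference unchanged, so no sign could turn there. When each array was left out, the ratio difference ranged from 0.27 to 0.62 for Prdx2, from -0.055 to 0.48 for Gsta4 and from 0.23 to 0.67 for Duox1. The level difference ranged from -0.42 to -0.11 for Prdx2, from -0.33 to 0.046 for Gsta4 and from -0.35 to 0.056 for Duox1, the IP difference from -0.22 to 0.038, from -0.37 to 0.21 and from -0.20 to 0.18, and the supernatant difference from -0.63 to -0.20, from -0.40 to -0.08 and from -0.67 to -0.09. With normexp the level of Prdx2 turned to 0.030 and the IP difference to 0.20 for Prdx2, 0.015 for Gsta4 and -0.10 for Duox1. The IP difference of Duox1 also turned to -0.012 with quantile normalization, -0.0050 with median scaling, -0.010 with outlier spots kept and -0.11 with spike-in scaling. Without control replicate 1 and Cd replicate 3 together it was -0.33, and that of Prdx2 was 0.13. The cause of these turns was not tested.

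Across all probes the ratio test called 1 in the main setting. It called 0 with normexp, without dye normalization, with the replicate block, with spike-in scaling, without both doubted arrays and under each of the 3 other filters (all 6 arrays, 1 channel, none), 2 with no moderation, and 0 to 1 when each array was left out. The supernatant test called 0, but 17 with spike-in scaling (9 higher, 8 lower), 1 with the filter on all 6 arrays, 1 with a variance trend, 1 without both doubted arrays and 0 to 1 when each array was left out. Spike-in scaling used 14 probes whose names resemble the word spike-in and moved the median ratio difference over all probes from 0.04 to 0.23 and the median IP difference from 0.03 to -0.10. With no filter the median level difference was -0.25, and in the deposited series table the median IP difference was 0.28. Nothing in the labels says that a shared number pairs arrays, and in 0 readouts did every pair correlate above 0.1. Between arrays numbered 1, 2 and 3, deviations from the group mean correlated at -0.07, -0.05 and -0.12 for the ratio, -0.41, 0.43 and 0.0038 for the level, -0.26, 0.41 and -0.12 for the IP signal and -0.39, 0.13 and 0.11 for the supernatant. The number of arrays that correlated best with their own number was 0 of 6 for the ratio and 2 of 6 for each other readout, and the replicate block gave 0 calls in every readout. Normexp used median signals in place of mean signals, which were not used here. Duox1 had no value with the filter on all 6 arrays, since control replicate 1 did not measure it above background. The slide or scan block could not be fitted.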
